A study of Mus musculus with 18 samples.

Results

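The 43 genes described here are type I interferon-stimulated antiviral genes of the mouse, measured by RNA-seq in 18 cultures of mouse embryonic fibroblasts (MEFs). They were chosen by name with earlier results of these data known, and all 43 were found among the 55401 gene identifiers of the count table. Their products fall into 8 roles: the IFIT proteins, the ISG15 conjugation system, the OAS enzymes and PKR, the Mx and membrane-associated effectors, nucleic acid sensors, transcription factors of the pathway, the PARP and nuclear body genes, and 7 further genes. MEFs are primary cells grown from minced mid-gestation embryos, here without head and viscera. The cells fell into 6 groups of 3 libraries in 2 genetic series, and every group consisted of primary MEFs infected with a retroviral vector. The S6K1 series held S6K1 WT cells with an empty vector (WT EV), S6K1 WT cells with constitutively active HRAS (WT RAS) and S6K1 KO cells with RAS (KO RAS). The S6K1/S6K2 series held S6K1/S6K2 WT cells with EV, S6K1/S6K2 WT cells with RAS and S6K1/S6K2 DKO cells with RAS (DKO RAS). Rps6kb1 and Rps6kb2 encode S6K1 and S6K2, kinases of ribosomal protein S6, and an oncogenic RAS puts primary fibroblasts into senescence, in which growth stops lastingly and cytokines are secreted. Per the methods of the study, S6K1 WT and KO embryos came from heterozygous matings and were littermates, whereas DKO embryos and their WT controls came from separate breedings. Whole-body knockouts were used, so that every cell type in a culture carried the deletion. KO or DKO cells with EV were not analysed here, and the labels give no harvest time.

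Total counts per library ranged from 8319445 to 14402442. Rps6kb1 was measured at 63.9, 73.3 and 74.9 counts per 1000000 counts (CPM) in WT RAS and at 23.8, 31.4 and 37.5 CPM in KO RAS (S6K1 series). Its log2 fold change was -1.17 ± 0.17 (SE), with an edgeR adjusted p of 0.234, or 0.000101 with the replicate number as a block. In DKO RAS it was at 34.2, 39.2 and 37.4 CPM against 73.5, 82.7 and 81.3 CPM in WT RAS (edgeR adjusted p = 0.00908). Rps6kb2 stood at 2.65, 2.998 and 2.74 CPM in DKO RAS and at 23.9, 23.8 and 28.5 CPM in WT RAS (edgeR adjusted p = 7.44e-05). Hras was higher in RAS than in EV in both series, with log2 fold changes of 0.93 ± 0.14 and 0.75 ± 0.15 (edgeR adjusted p = 0.002903 and 0.00568). The 12 fibroblast markers, in cells that the labels call fibroblasts, summed to between 44568 and 60372 CPM in EV libraries and between 23833 and 37923 CPM in RAS libraries, without overlap. The 28 macrophage markers were also present, at a summed level between 102 and 5286 CPM, and this level differed widely between libraries of the same group. All 28 were above 0 counts in 17 of the 18 libraries, and Aif1 and Fcgr1 were at 0 in DKO RAS replicate 3.

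Type I interferons are secreted antiviral cytokines, chiefly interferon-β and the interferon-α family. They bind the IFNAR receptor, whose kinases JAK1 and TYK2 phosphorylate STAT proteins, among them STAT2, which acts with IRF9 in the complex ISGF3. ISGF3 recognises the interferon-stimulated response element (ISRE) in the promoters of many antiviral genes, and fibroblasts and macrophages both respond in this way.

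A RefSeq promoter window (GRCm38.p6, from 250 bases before to 50 bases after the start site) was found for 32 of the 43 genes. The ISRE core was searched on both strands as 2 copies of GAAA that are 2 bases apart. It was present in 12 of these 32 genes (37.5%), against 1079 of all 27025 genes with a window (3.99%). A gene with several windows was counted once, if any of them held the core. The gamma-activated sequence of the interferon-gamma response, searched as TTCNNNGAA and counted alike, was present in 7 of the 32 genes (21.9%) against 2582 of the 27025 (9.55%). The same ISRE search matched 3 of the 22 macrophage markers with a window (13.6%). No window was found for Oas2, Mx1, Mx2, Usp18, Dhx58, Rtp4, Ifi27l2a, Parp9, Parp14, Tor3a and Zbp1. The 7 stretches below each lie wholly upstream of the start site and are shown because they carry the element that names this group of genes, with the ISRE core in capitals, 5′ to 3′ along the strand of the gene. A core read on the opposite strand appears as its reverse complement, with TTTC in place of GAAA.
Ifit1: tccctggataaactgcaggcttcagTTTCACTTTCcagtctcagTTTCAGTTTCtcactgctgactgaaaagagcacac
Ifit3: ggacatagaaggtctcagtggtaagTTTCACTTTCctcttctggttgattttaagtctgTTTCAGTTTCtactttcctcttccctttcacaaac
Isg15: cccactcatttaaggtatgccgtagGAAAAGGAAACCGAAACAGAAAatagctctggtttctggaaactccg
Oas3: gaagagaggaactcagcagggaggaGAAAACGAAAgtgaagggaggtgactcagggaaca
Bst2: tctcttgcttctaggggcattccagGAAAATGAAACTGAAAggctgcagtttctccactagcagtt
Stat2: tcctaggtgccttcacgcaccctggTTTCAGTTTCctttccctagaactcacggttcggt
Rsad2: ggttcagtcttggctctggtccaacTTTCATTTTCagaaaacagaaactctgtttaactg
The Ifit1 stretch lies at chr19:34640760-34640838 on the plus strand, with the first bases of its 2 cores at -104 and -85 from the start site. That of Ifit3 lies at chr19:34583348-34583441 on the plus strand, with cores at -156 and -122. In Isg15, at chr4:156200850-156200921 on the minus strand, 3 overlapping cores run between -78 and -66, so that they form 1 block of capitals. The remaining stretches were at chr5:120777700-120777759 on the minus strand (Oas3), chr8:71537562-71537627 on the minus strand (Bst2), chr10:128270251-128270310 on the plus strand (Stat2) and chr12:26456538-26456597 on the minus strand (Rsad2). Their cores begin at -75 in Oas3, at -130 and -124 in Bst2, where they overlap, at -222 in Stat2 and at -120 in Rsad2. Oas1a, Ifitm3, Ddx58, Ifih1 and Eif2ak2 also held a core and are not printed. A match describes letters in a window and not a bound site, and a window without a match says only that these letters are absent from it.

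Single libraries stood apart within the groups for most of the interferon-stimulated genes. Their summed level was 2296, 2976 and 1945 CPM in the 3 WT EV libraries of the S6K1 series (replicates 1 to 3), 4939, 5587 and 1515 CPM in WT RAS and 1273, 2416 and 1012 CPM in KO RAS. Libraries of the S6K1/S6K2 series summed to 1694, 2586 and 2344 CPM in WT EV, 2239, 998 and 1025 CPM in WT RAS and 789.5, 954 and 1109 CPM in DKO RAS. WT RAS replicates 1 and 2 of the S6K1 series were high and held the highest of all 18 values for 42 of the 43 genes, whereas WT RAS replicate 3 was the lowest of its group for all 43. KO RAS replicate 2 was the highest KO library for all 43 genes and lay above WT RAS replicate 3 for 42 of them. In the S6K1/S6K2 series WT RAS replicate 1 was the highest of its group for all 43 genes, and a DKO RAS library had the lowest of the 18 values for 35. Because the libraries of a group differed this much, each comparison below is given with and without the library that stood apart. Such a library was picked on the levels of these same genes, so leaving it out moves the fit in a known direction. Fits without it describe how far a result rests on that library and are no test of a response. In counts from whole cultures, fewer cells of a type and less RNA per cell cannot be told apart.

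**Figure D1:**
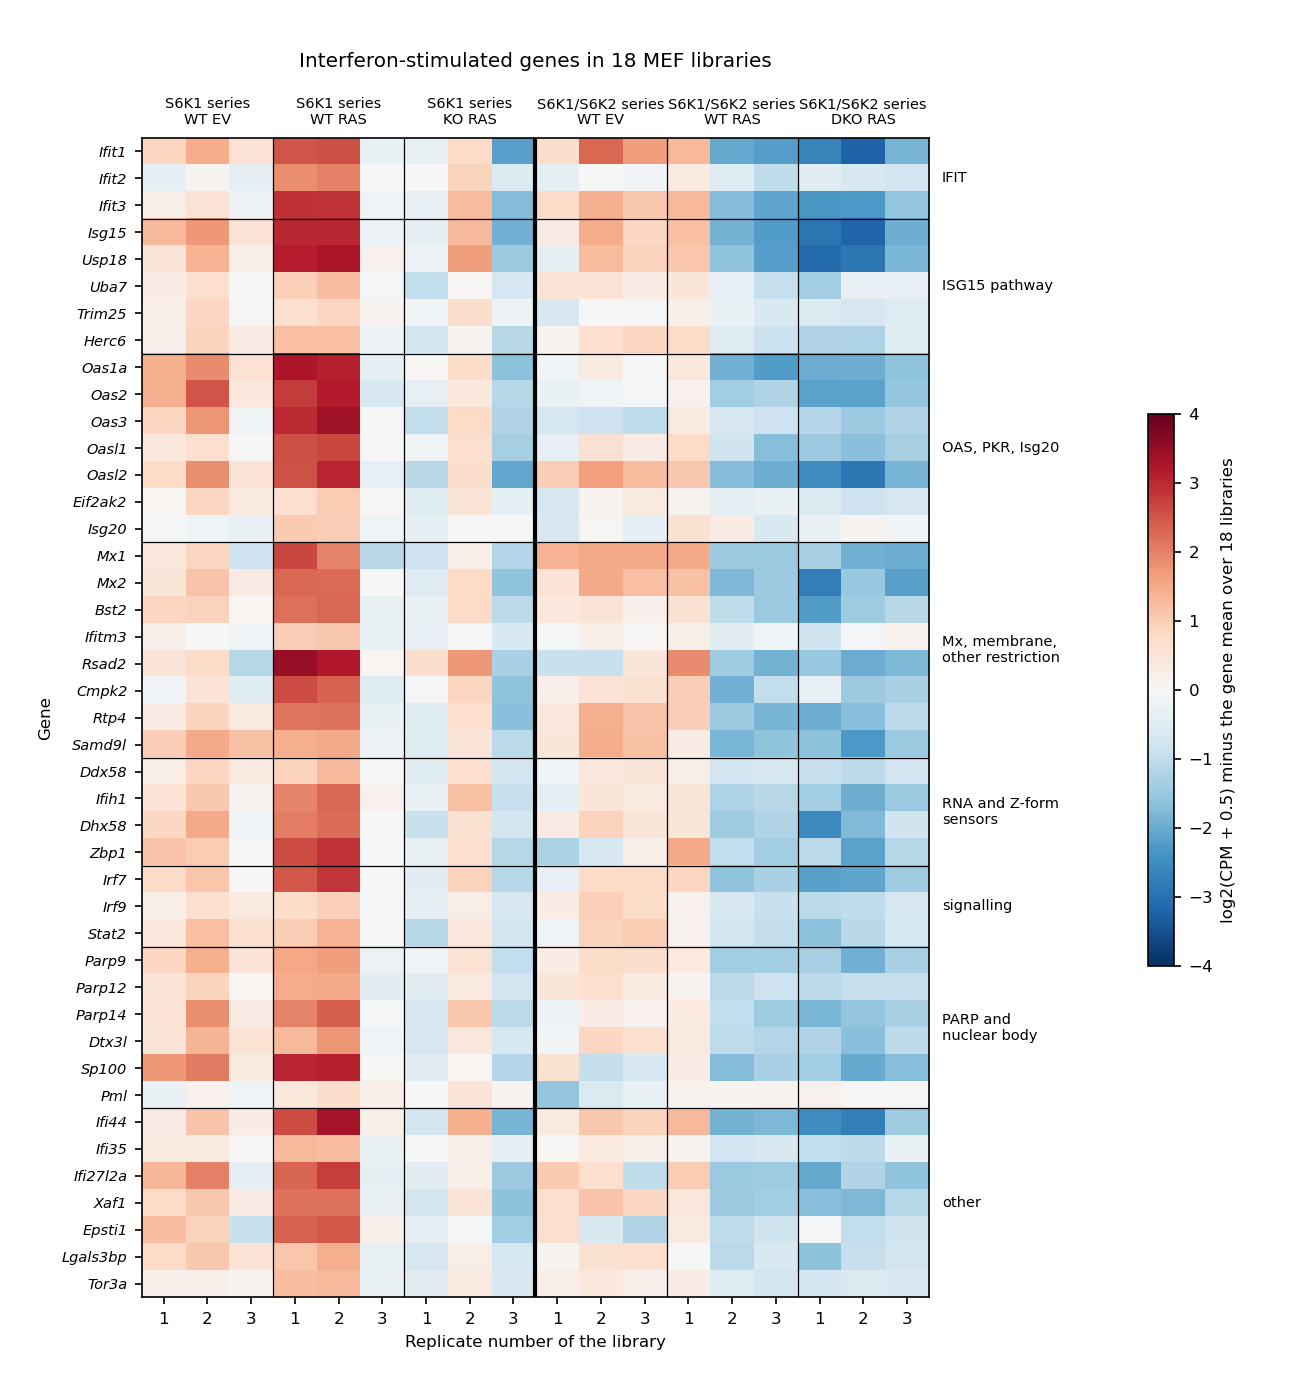
Heat map of the 43 interferon-stimulated genes (rows, by role) in the 18 libraries (columns, by group and replicate), coloured by log2(CPM + 0.5) minus the mean of that gene over all libraries. S6K1 WT RAS replicates 1 and 2 are the highest columns, while WT RAS replicate 3, KO RAS replicates 1 and 3, S6K1/S6K2 WT RAS replicates 2 and 3 and the 3 DKO RAS libraries are low for most genes.

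Per length of the gene model, the mean level in S6K1 WT EV was highest for Ifitm3 (494 CPM per kb), followed by Bst2 (218), Lgals3bp (132) and Isg15 (105). Ifitm3 encodes a membrane protein that blocks viral fusion, Bst2 encodes tetherin, which holds budding virus at the cell surface, Lgals3bp encodes a secreted glycoprotein, and Isg15 encodes a ubiquitin-like modifier. Oas3, a 2′-5′-oligoadenylate synthetase, was the lowest at 0.44 CPM per kb in that group and at 0.049 CPM per kb in S6K1/S6K2 WT EV. Ifitm3, Bst2 and Lgals3bp were also the 3 highest in S6K1/S6K2 WT EV, at 505, 179 and 104 CPM per kb.

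RAS against EV in S6K1 WT cells asks how the genes respond to the oncogene. Of the 43 genes, 42 had a higher fitted level in WT RAS than in WT EV, beside 50.2% of all 14036 genes tested, with a median log2 fold change of 0.96 against 0.0018 over all genes. The values ran from -0.16 for Samd9l to 2.62 for Rsad2, which encodes the antiviral radical-SAM enzyme viperin. None of the 43 passed the edgeR test (adjusted p under 0.05), which called 7.15% of all genes higher and 6.09% lower. At an unadjusted p under 0.05, 7 were higher, beside 13.5% of all genes. The smallest edgeR adjusted p was 0.0544, for Ifit2. With the replicate number as a block, 20 of the 43 were called higher, beside 18.1% of all genes. Only Pml had no overlap between the groups, with all WT RAS above all WT EV values, a pattern seen in 15.9% of all genes tested.

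The 3 WT lines differed. In lines 1 and 2 all 43 genes were higher with RAS than with EV, with median log2 ratios of 1.32 and 1.10, and in line 3 only 12 were higher, with a median of -0.32. The medians over all genes in the same lines were between -0.0062 and 0.028. Without WT RAS replicate 3, edgeR called 12 of the 43 genes, all higher, beside 6.6% of all genes in that fit. That library was picked for its low values of these same genes, so the 12 calls are no further support. The macrophage markers summed to 4738, 3648 and 968 CPM in WT EV and to 5286, 4669 and 1023 CPM in WT RAS, so that line 3 was low for them in both groups. Of the 28, 17 were fitted higher and 11 lower in WT RAS, with a median of 0.07. By edgeR none was called and 1 had an unadjusted p under 0.05. Under the block 7 macrophage markers were called higher and 4 lower. Of the 12 fibroblast markers edgeR called 1 higher and 4 lower with RAS. The part of these markers in the result was not tested.

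S6K1 KO against WT under RAS asks how loss of the kinase bears on these genes, and it uses the same WT RAS libraries as the preceding comparison, so that a high WT RAS library raises one and lowers the other. All 43 genes had a lower fitted level in KO RAS than in WT RAS, where 43.4% of all genes tested were lower. The median log2 fold change was -1.91, against 0.031 over all genes, and the range was from -3.46 for Oas3 to -0.22 for Pml. The median KO RAS level of Oas3, 0.184 CPM, was under that of 3 counts, so the size of its fold is uncertain. None passed the edgeR test without a block, which called 0.00712% of all genes (1 of 14036). At an unadjusted p under 0.05, 37 of the 43 were lower, beside 5.22% of all genes. With the replicate block edgeR called 38 of the 43 lower, beside 3.61% of all genes. The block takes KO and WT libraries of the same number as pairs, which the labels do not state. Only Epsti1 had all KO RAS values below all WT RAS values, beside 4.17% of all genes.

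Between libraries of the same number, the median log2 ratio of KO RAS to WT RAS was -2.65, -1.48 and -0.90, and 42 of the 43 genes were lower in all 3 pairs, beside 19.4% of all genes. WT RAS replicate 3 was low, and without it the median log2 fold change was -2.37 and edgeR called 1 of the 43 genes, lower, beside 0.119% of all genes. Compared with WT EV of the same number, KO RAS had median ratios of -1.09, -0.40 and -1.14, and 33 of the 43 genes were lower in all 3 pairs, beside 33.1% of all genes. In WT RAS replicate 3 as well, 31 of the 43 genes were lower than in WT EV replicate 3, where 49.4% of all genes were higher. The macrophage markers also differed between KO RAS and WT RAS. Their summed level was 1196, 913 and 359 CPM in KO RAS, and all 28 were lower than in WT RAS, with a median of -2.21. By edgeR 28 of the 28 had an unadjusted p under 0.05, none had an adjusted p under 0.05, and 27 were called lower with the replicate block. In pairs of the same number their median log2 ratio was -2.11, -2.47 and -1.61. Their part in the lower level of the interferon-stimulated genes was not tested. The 12 fibroblast markers had a median of -0.22 in this comparison, and edgeR called none.

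RAS against EV in S6K1/S6K2 WT cells repeats the first comparison in lines from another breeding, and there most of the genes had a lower fitted level with RAS. Oas3 was not tested for low counts, and of the other 42 genes 37 were lower and 5 higher (Pml, Isg20, Zbp1, Rsad2 and Trim25). A lower fitted level was found for 51.8% of all 13881 genes tested. The 42 genes had a median log2 fold change of -0.73 against -0.02 over all genes. The edgeR test called 4 genes lower, beside 12.7% of all genes: Irf9 (-1.07 ± 0.27, adjusted p = 0.0181), Parp12 (-1.03 ± 0.27, 0.0209), Samd9l (-1.83 ± 0.53, 0.0297) and Lgals3bp (-0.96 ± 0.31, 0.0458). It called 1 gene higher, beside 13.5% of all genes: Pml, which organises nuclear bodies (0.84 ± 0.26, edgeR adjusted p = 0.0398). With the replicate block the calls were also 4 lower and 1 higher, beside 13.7% and 15% of all genes. Under the block the edgeR adjusted p of Lgals3bp became 0.0694 and that of Xaf1, a pro-apoptotic factor, became 0.0494. All WT RAS values lay below all WT EV values for 5 genes (Irf9, Parp12, Samd9l, Lgals3bp and Xaf1), beside 21.7% of all genes, and above them for Pml, beside 20.9%.

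Here the high library was WT RAS replicate 1, picked for its high values of these same genes. Calls made without it are a description and no further support. In line 1, 34 of the 43 genes were higher with RAS, with a median log2 ratio of 0.51, whereas in lines 2 and 3 only 3 were higher, with medians of -1.60 and -1.63. Over all genes 49.7%, 48.7% and 50.2% were higher in these lines. Without WT RAS replicate 1 edgeR called 30 of the 42 genes, all lower, beside 10.9% of all genes, with a median log2 fold change of -1.65. Without WT EV replicate 2, WT RAS replicate 2 or WT RAS replicate 3 it called 0, beside 16.3%, 14.4% and 15.4% of all genes in either direction, with medians of -0.63, -0.44 and -0.37. The macrophage markers summed to 2034, 226 and 300.4 CPM in WT EV and 1339.7, 237 and 356 CPM in WT RAS, so that replicate 1 was high for them in both groups. Of the 27 tested, 5 were fitted higher and 22 lower with RAS, with a median of -0.79. By edgeR none was called, none had an unadjusted p under 0.05, and with the replicate block 1 was called higher and 10 lower. Of the 12 fibroblast markers edgeR called 0 higher and 6 lower with RAS. The part of both lists was not tested.

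**Figure D2:**
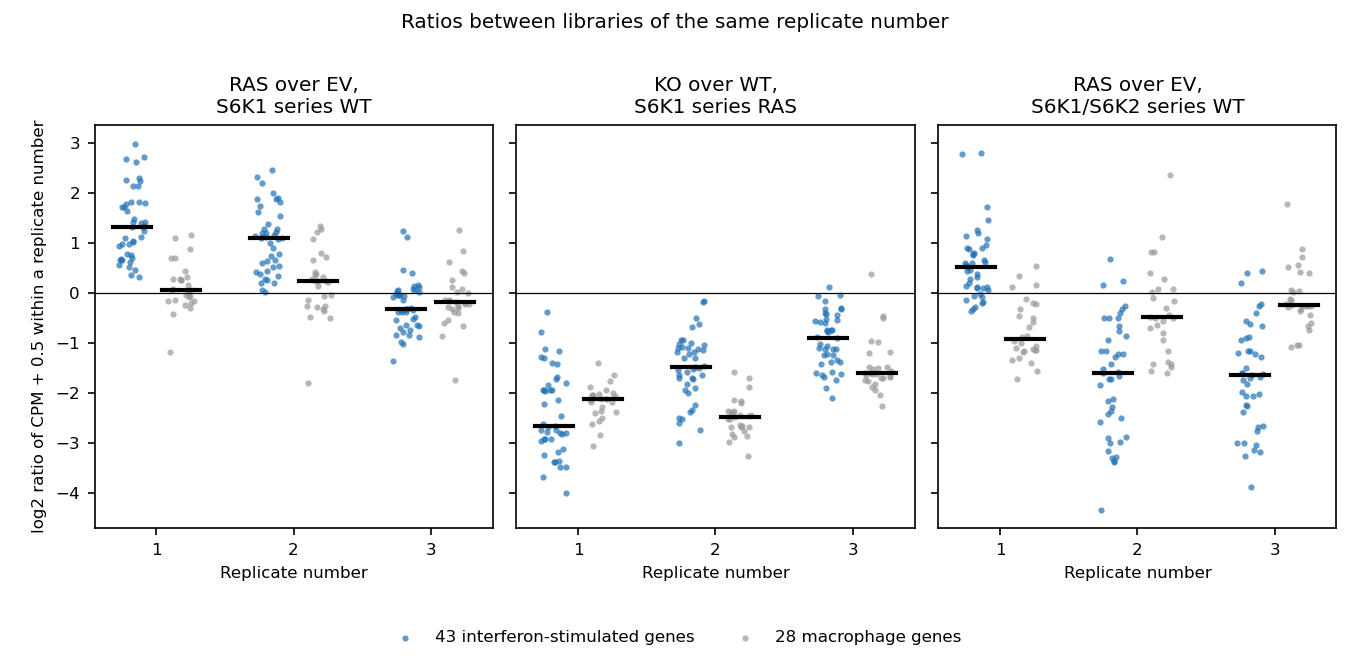
Log2 ratio of CPM + 0.5 (y axis) of each interferon-stimulated gene (blue points) between libraries of the same replicate number (points), in 3 panels by pair of groups, with the replicate number on the x axis, the 28 macrophage genes in grey and medians as black bars. With RAS the medians were 1.32, 1.10 and -0.32 in the 3 lines of the S6K1 series and 0.51, -1.60 and -1.63 in those of the S6K1/S6K2 series.

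S6K1/S6K2 DKO against WT under RAS compares loss of both kinases with the same WT RAS libraries. All 42 genes tested had a lower fitted level in DKO RAS, beside 50.1% of all genes, with a median log2 fold change of -1.14 against about 0 over all genes. Oasl1, Oas1a and Oas2 were at or under 3 counts in every DKO RAS library, so that their fitted folds were no bound. The median of the other 39 was -1.10, and it was -1.14 with the 3 genes set at that floor. None of the 42 passed the edgeR test, which called 0.0144% of all genes lower (DESeq2 called 0). At an unadjusted p under 0.05, 17 were lower, beside 0.901% of all genes. All DKO RAS values lay below all WT RAS values for 3 genes (Oas2, Ifih1 and Eif2ak2), beside 3.05% of all genes. WT RAS replicate 1 was the high library. Without it the median was -0.21 and 7 of the 42 genes were fitted higher in DKO RAS. The macrophage markers summed to 349.5, 102 and 131 CPM in DKO RAS, and all 27 tested were fitted lower than in WT RAS, with a median of -1.93. By edgeR none of them was called, 2 had an unadjusted p under 0.05, and their part was not tested. Against WT EV, all 3 DKO RAS libraries were below all 3 WT EV libraries for 36 of the 43 genes, beside 21.2% of all genes, a description without a test. The summed level of the 43 genes was also low in WT RAS replicates 2 and 3, at 998 and 1025 CPM against 1694, 2586 and 2344 CPM in WT EV.

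**Figure D3:**
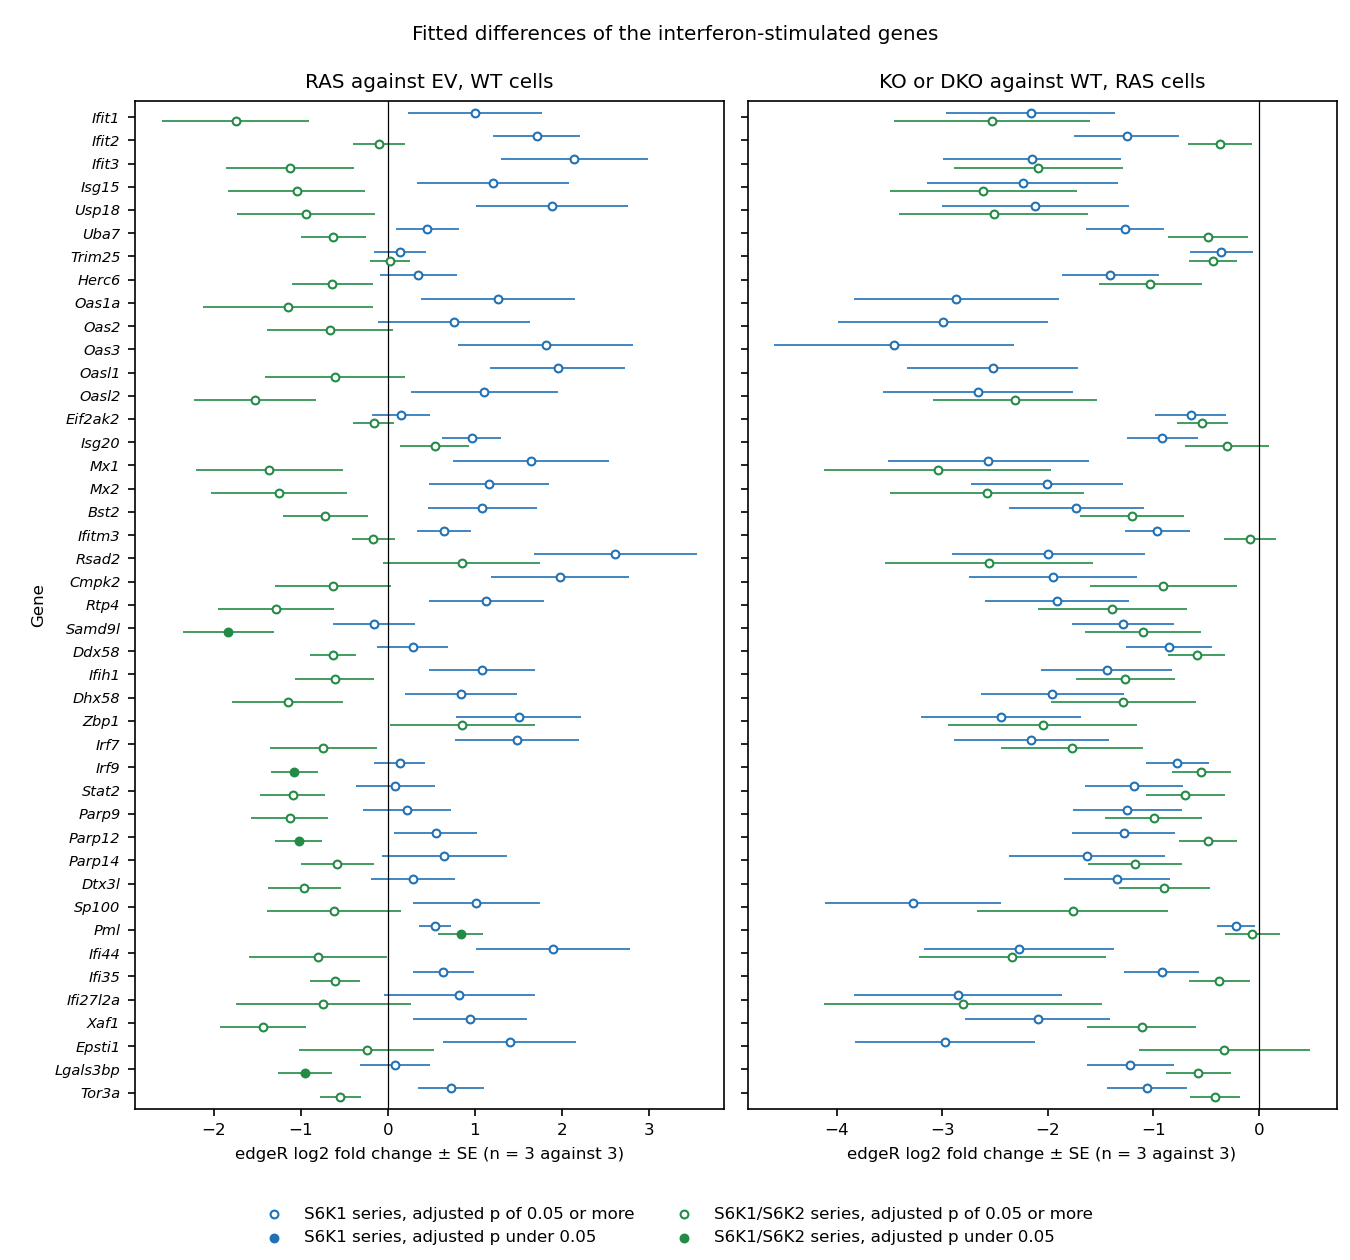
Log2 fold change of each interferon-stimulated gene in the 4 comparisons (edgeR, points with standard errors, x axis in log2 units, genes by role on the y axis), with genes at or under 3 counts in all DKO RAS libraries left out of that comparison. Filled points have an edgeR adjusted p under 0.05, and the 5 of them are all in RAS against EV of the S6K1/S6K2 series.

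The responses of both series were set against each other in a fit over all 18 libraries, where the kinase deleted and the breeding of the lines cannot be told apart. The fitted RAS response was lower in the S6K1/S6K2 series for 42 of the 43 genes, beside 52.8% of all genes, and higher for Pml, with a median difference of -1.67 on the log2 scale. The edgeR test called none of the 43 and 0% of all genes (DESeq2 called 0 of the 43). At an unadjusted p under 0.05, 18 were lower, beside 6.17% of all genes, and the smallest edgeR adjusted p was 0.295 (Ifit2, difference -1.84 ± 0.63). The fitted effect of the loss was less negative in the S6K1/S6K2 series for 34 genes, where 51.2% of all genes had a higher value, and more negative for 9, with a median difference of 0.42. The edgeR test called none of them and 0.0069% of all genes, and DESeq2 called none. At an unadjusted p under 0.05, 1 gene was higher (Ifitm3, 0.91 ± 0.43, edgeR adjusted p = 0.9999), beside 0.725% of all genes. Leaving out 1 library at a time, the median difference of the RAS response ran from -2.54 without S6K1/S6K2 WT RAS replicate 1 to -1.29 without S6K1 WT EV replicate 3. That of the loss stayed positive but ran from 0.037 without S6K1 WT RAS replicate 2 to 1.39 without S6K1/S6K2 WT RAS replicate 1.

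The IFIT proteins bind viral RNA and keep it from being translated. All 3 genes had the same sign in each comparison, with medians of 1.71 for RAS and -2.15 for KO in the S6K1 series, and of -1.12 for RAS and -2.09 for DKO in the S6K1/S6K2 series. Ifit1, which recognises RNA lacking the methylated cap of host mRNA, was at 71.2, 109 and 57.5 CPM in WT EV, 221, 234 and 31.8 CPM in WT RAS and 31.3, 66.04 and 8.101 CPM in KO RAS (S6K1 series). Ifit1 values in the S6K1/S6K2 series were 63.4, 192 and 125 CPM in WT EV, 95.4, 9.06 and 8.03 CPM in WT RAS and 5.596, 3.698 and 10.3 CPM in DKO RAS. WT RAS replicate 3 of the first series lay below all WT EV values, and WT RAS replicates 2 and 3 of the second did too, so the WT groups overlapped in both. Ifit1 had a KO against WT value of -2.16 ± 0.80, with an edgeR adjusted p of 0.594, or 0.0159 with the replicate block. Ifit3 was at 40.7, 52.2 and 29.8 CPM in WT EV, 263, 259.9 and 30.6 CPM in WT RAS and 27.5, 83.1 and 9.96 CPM in KO RAS (S6K1 series). Ifit3 values in the S6K1/S6K2 series were 59.1, 93.3 and 72.9 CPM in WT EV, 85.4, 10 and 7.66 CPM in WT RAS and 6.48, 6.596 and 11.2 CPM in DKO RAS. Its 2 highest values were again WT RAS replicates 1 and 2 of the S6K1 series, and its log2 fold change between WT RAS and WT EV there was 2.14 ± 0.84 (edgeR adjusted p = 0.137, or 0.0156 with the replicate block). Ifit2 was at 45.7, 64.1 and 45 CPM in WT EV, 216, 241 and 59.5 CPM in WT RAS and 60.04, 109.8 and 41.01 CPM in KO RAS (S6K1 series). WT RAS replicates 1 and 2 of Ifit2 lay above every WT EV value and replicate 3 within their range. Its log2 fold change was 1.71 ± 0.50 (edgeR adjusted p = 0.0544, or 0.00235 with the replicate block). Ifit2 values in the S6K1/S6K2 series were 45.97, 58.6 and 55.3 CPM in WT EV, 78.3, 41.3 and 29.5 CPM in WT RAS and 43.3, 38.3 and 34.6 CPM in DKO RAS, a narrower range in which the groups overlapped. Ifit3 has a near-identical copy, Ifit3b, so the split of reads between them is uncertain.

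Isg15 is conjugated to other proteins, UBA7 and HERC6 being its activating enzyme and a ligase, TRIM25 a ubiquitin and ISG15 ligase that acts on RIG-I, and USP18 the protease that removes it and damps receptor signalling. The medians of these 5 genes were 0.45 and -1.41 for RAS and for KO in the S6K1 series, and -0.64 and -1.03 for RAS and for DKO in the S6K1/S6K2 series. Isg15 was at 80.6, 109.9 and 48.1 CPM in WT EV, 267, 268 and 27.96 CPM in WT RAS and 25.2, 82.1 and 8.35 CPM in KO RAS (S6K1 series). Isg15 values in the S6K1/S6K2 series were 41.2, 92.5 and 58.1 CPM in WT EV, 77.1, 8.59 and 6.66 CPM in WT RAS and 3.93, 3.098 and 8.04 CPM in DKO RAS. Its highest values were in WT RAS replicates 1 and 2 of the S6K1 series, and WT RAS replicate 3 was below all EV values. Isg15 had a KO against WT value of -2.24 ± 0.90, with an edgeR adjusted p of 0.643, or 0.0217 with the replicate block. Usp18 was at 25.7, 47.3 and 20.9 CPM in WT EV, 159.9, 175 and 20.4 CPM in WT RAS and 15.1, 57.8 and 6.16 CPM in KO RAS (S6K1 series). Usp18 values in the S6K1/S6K2 series were 13.9, 43.9 and 34.3 CPM in WT EV, 38.9, 5.53 and 3.47 CPM in WT RAS and 1.67, 1.999 and 4.69 CPM in DKO RAS. WT RAS and WT EV overlapped in both series, and the log2 fold change with RAS in the first was 1.89 ± 0.88 (edgeR adjusted p = 0.207, or 0.01902 with the replicate block). Uba7 was at 19.6, 25.3 and 15.9 CPM in WT EV, 31.2, 38.3 and 15.2 CPM in WT RAS and 7.803, 16.6 and 9.79 CPM in KO RAS (S6K1 series). KO RAS replicate 2 lay above WT RAS replicate 3, and the KO against WT value was -1.27 ± 0.37, with an edgeR adjusted p of 0.587, or 0.00622 with the replicate block. Uba7 values in the S6K1/S6K2 series were 23.7, 23.3 and 19.5 CPM in WT EV, 22.3, 12.7 and 8.21 CPM in WT RAS and 5.79, 12.5 and 12.6 CPM in DKO RAS, and DKO RAS overlapped WT RAS. Trim25 was at 88.3, 129 and 74.6 CPM in WT EV, 114, 134 and 78.7 CPM in WT RAS and 66.3, 119.7 and 63.9 CPM in KO RAS (S6K1 series). Trim25 values in the S6K1/S6K2 series were 47.4, 73.8 and 71.8 CPM in WT EV, 87.3, 61.2 and 48.3 CPM in WT RAS and 49.3, 45.6 and 51.1 CPM in DKO RAS. Its groups overlapped in all 4 comparisons, its log2 fold change with RAS in the S6K1/S6K2 series was 0.03 ± 0.23, and Herc6 was between 2.20 and 14.2 CPM.

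The OAS enzymes make 2′-5′-oligoadenylate on double-stranded RNA and so activate RNase L, PKR (Eif2ak2) stops translation on the same signal, and ISG20 is an exonuclease. Several of these 7 genes had few counts, and their medians were 1.11 and -2.66 for RAS and KO in the S6K1 series. In the S6K1/S6K2 series 6 of the 7 were tested, with a median of -0.63 for RAS. For DKO no median is given, since Oasl1, Oas1a and Oas2 were at or under 3 counts in every DKO RAS library. Oasl2, an OAS-like protein, was at 37.1, 78.02 and 31.2 CPM in WT EV, 127, 178 and 16.8 CPM in WT RAS and 9.55, 34.9 and 4.64 CPM in KO RAS (S6K1 series). Oasl2 values in the S6K1/S6K2 series were 41.98, 67.4 and 52.1 CPM in WT EV, 44.8, 6.002 and 5.02 CPM in WT RAS and 3.34, 2.399 and 5.48 CPM in DKO RAS. Its levels in WT RAS replicates 1 and 2 of the first series stood above the rest, and the KO against WT value was -2.66 ± 0.90, with an edgeR adjusted p of 0.587, or 0.00702 with the replicate block. Oas2 was at 5.62, 12.2 and 2.48 CPM in WT EV, 14.98, 19.3 and 0.967 CPM in WT RAS and 1.29, 2.45 and 0.506 CPM in KO RAS (S6K1 series), and its KO against WT value was -2.99 ± 0.99, with an edgeR adjusted p of 0.587, or 0.00298 with the replicate block. Oas2 of the S6K1/S6K2 series had 16, 17 and 19 counts in WT EV, 19, 3 and 5 counts in WT RAS and 0, 0 and 3 counts in DKO RAS. A count of 0 allows up to 3 counts, so that for Oas2 the DKO RAS level was at or under this floor in all 3 libraries, and no fold is given. Such floors cover counting error only. Oas1a had 25, 1 and 0 counts in WT RAS and 1, 1 and 3 in DKO RAS of that series, Oasl1 had 27, 5 and 1 and 2, 1 and 3, and Oas3 had 12, 3 and 3 and 1, 0 and 1. For these genes a difference between WT RAS replicates 2 and 3 and DKO RAS was not detectable at this depth. In the S6K1 series Oas1a, Oas3 and Oasl1 reached 21.5, 13.8 and 11.7 CPM in WT RAS. Oas3 had the most negative KO against WT value of all 43 genes, -3.46 ± 1.13, with an edgeR adjusted p of 0.587, or 0.00138 with the replicate block. Its KO RAS values ran from 0.084 to 1.84 CPM. Their median of 0.184 CPM was under the level of 3 counts, so the size of this fold is uncertain. Oas1a belongs to a cluster of near-identical genes, and Oasl1 and Oasl2 are paralogs, so their read assignment is uncertain.

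Eif2ak2 was at 75.2, 128 and 92.8 CPM in WT EV, 115, 146 and 73.4 CPM in WT RAS and 51.2, 104 and 54.2 CPM in KO RAS (S6K1 series). Eif2ak2 values in the S6K1/S6K2 series were 45.1, 79.8 and 93.1 CPM in WT EV, 78.4, 56.3 and 60.1 CPM in WT RAS and 49.1, 40.5 and 45.1 CPM in DKO RAS. WT RAS overlapped WT EV in both series, and the KO against WT value was -0.65 ± 0.33, with an edgeR adjusted p of 0.863, or 0.0439 with the replicate block. All 3 DKO RAS values lay below the WT RAS values, with a log2 fold change of -0.54 ± 0.24 (edgeR adjusted p = 0.9999). Isg20 was at 3.06, 2.797 and 2.58 CPM in WT EV, 7.09, 6.84 and 2.82 CPM in WT RAS and 2.39, 3.14 and 3.12 CPM in KO RAS (S6K1 series). Isg20 values in the S6K1/S6K2 series were 1.87, 3.296 and 2.41 CPM in WT EV, 5.15, 4.001 and 1.92 CPM in WT RAS and 2.55, 3.498 and 2.92 CPM in DKO RAS. It was 1 of the 5 genes with a higher fitted level with RAS in both series, 0.96 ± 0.34 (edgeR adjusted p = 0.0964, or 0.0292 with the replicate block) in the first and 0.54 ± 0.40 in the second (edgeR adjusted p = 0.341). The KO against WT value of Isg20, -0.92 ± 0.34, had an edgeR adjusted p of 0.588, or 0.148 with the replicate block.

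The Mx GTPases trap viral nucleocapsids, tetherin (Bst2) holds virions at the membrane, IFITM3 acts in endosomes, viperin (Rsad2) makes a chain-terminating nucleotide from the product of the kinase encoded by the neighbouring Cmpk2, RTP4 is a helper protein of receptor transport, and SAMD9L is an antiproliferative antiviral factor. These 8 genes had medians of 1.15 and -1.93 for RAS and KO in the S6K1 series and of -0.99 and -1.30 for RAS and DKO in the S6K1/S6K2 series. Rsad2 was at 11.2, 13.3 and 3.22 CPM in WT EV, 91.4, 74.9 and 8.22 CPM in WT RAS and 12.9, 26.6 and 2.87 CPM in KO RAS (S6K1 series). Rsad2 values in the S6K1/S6K2 series were 3.901, 3.904 and 11.1 CPM in WT EV, 29.6, 2.59 and 1.73 CPM in WT RAS and 2.36, 1.599 and 1.86 CPM in DKO RAS. Rsad2 was far higher in WT RAS replicates 1 and 2 of the first series than elsewhere, and with RAS the log2 fold change was 2.62 ± 0.94 (edgeR adjusted p = 0.106, or 0.000134 with the replicate block). In the second series only WT RAS replicate 1 lay above WT EV, and the value of 0.85 ± 0.90 became -1.56 without that library. Bst2 was at 191, 197 and 111 CPM in WT EV, 479, 513 and 84.7 CPM in WT RAS and 87.3, 177 and 50.8 CPM in KO RAS (S6K1 series). Bst2 values in the S6K1/S6K2 series were 139, 149.6 and 121 CPM in WT EV, 160.0, 51.9 and 36.9 CPM in WT RAS and 21.6, 38.3 and 48.6 CPM in DKO RAS. WT RAS replicate 3 lay below all WT EV values while replicates 1 and 2 lay above them, and the KO against WT value was -1.73 ± 0.64, with an edgeR adjusted p of 0.5903, or 0.0194 with the replicate block. Ifitm3 was at 379.9, 328 and 297 CPM in WT EV, 640.4, 689 and 267 CPM in WT RAS and 262, 324 and 215 CPM in KO RAS (S6K1 series). Ifitm3 values in the S6K1/S6K2 series were 308, 381 and 337 CPM in WT EV, 385, 242 and 288 CPM in WT RAS and 189, 318 and 357 CPM in DKO RAS. Its groups overlapped in all comparisons, its KO against WT value was -0.96 ± 0.31, with an edgeR adjusted p of 0.587, or 0.0291 with the replicate block, and DKO RAS replicates 2 and 3 lay within the WT RAS range. The DKO against WT value of Ifitm3, -0.09 ± 0.25, turned to 0.12 without WT RAS replicate 1 and to 0.14 without DKO RAS replicate 1. Ifitm3 has close paralogs in Ifitm1 and Ifitm2.

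Mx1 was at 3.06, 4.31 and 1.01 CPM in WT EV, 16.4, 9.98 and 0.725 CPM in WT RAS and 1.01, 2.68 and 0.675 CPM in KO RAS (S6K1 series). Mx1 values in the S6K1/S6K2 series were 6.53, 7.2 and 7.13 CPM in WT EV, 7.15, 0.471 and 0.456 CPM in WT RAS and 0.589, 0.1999 and 0.177 CPM in DKO RAS. Mx2 was at 7.12, 11.3 and 6.26 CPM in WT EV, 26.2, 25.4 and 4.92 CPM in WT RAS and 3.305, 8.97 and 1.27 CPM in KO RAS (S6K1 series). Mx2 values in the S6K1/S6K2 series were 7.46, 14.9 and 11.9 CPM in WT EV, 11.8, 1.06 and 1.46 CPM in WT RAS and 0.295, 1.399 and 0.707 CPM in DKO RAS. Both genes had S6K1/S6K2 WT RAS replicate 1 within the WT EV range and replicates 2 and 3 below it, with values that overlapped those of DKO RAS. The KO against WT value was -2.56 ± 0.95, with an edgeR adjusted p of 0.597, or 0.0241 with the replicate block, for Mx1 and -2.01 ± 0.72, with an edgeR adjusted p of 0.587, or 0.0164 with the replicate block, for Mx2. Mx1 and Mx2 share sequence, so reads between them are uncertain. Samd9l was at 58.4, 83.7 and 65.7 CPM in WT EV, 80.2, 84.4 and 25.2 CPM in WT RAS and 20.6, 41.5 and 13.5 CPM in KO RAS (S6K1 series). Samd9l values in the S6K1/S6K2 series were 40.9, 81.2 and 65.3 CPM in WT EV, 35.4, 7.88 and 9.21 CPM in WT RAS and 9.03, 5.497 and 10.1 CPM in DKO RAS. It was the gene among the 43 with a fitted level below EV in S6K1 WT RAS (-0.16 ± 0.47, edgeR adjusted p = 0.871), and in the S6K1/S6K2 series all WT RAS values were below all WT EV values. Its KO against WT value was -1.29 ± 0.49, with an edgeR adjusted p of 0.601, or 0.0426 with the replicate block. Cmpk2 and Rtp4 had KO against WT values of -1.95 ± 0.79 and -1.91 ± 0.68 (edgeR adjusted p = 0.643 and 0.587, or 0.0233 and 0.0272 with the replicate block).

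RIG-I (Ddx58), MDA5 (Ifih1) and LGP2 (Dhx58) sense RNA in the cytoplasm, and ZBP1 senses Z-form nucleic acid and can start necroptosis. The 4 genes had medians of 0.96 and -1.70 for RAS and KO in the S6K1 series and of -0.62 and -1.28 for RAS and DKO in the S6K1/S6K2 series. Ddx58 was at 111, 167 and 119 CPM in WT EV, 176, 225 and 91.1 CPM in WT RAS and 65.6, 146 and 54.4 CPM in KO RAS (S6K1 series). Ddx58 values in the S6K1/S6K2 series were 83.5, 127 and 129 CPM in WT EV, 108, 54.4 and 57.4 CPM in WT RAS and 48.2, 44.5 and 54.1 CPM in DKO RAS. WT RAS and WT EV overlapped in both series, the highest DKO RAS value was next to the lowest WT RAS value, and the KO against WT value was -0.85 ± 0.41, with an edgeR adjusted p of 0.8002, or 0.0313 with the replicate block. Ifih1 was at 34.01, 49.7 and 25.4 CPM in WT EV, 91.7, 117 and 26.5 CPM in WT RAS and 19.3, 52.5 and 12.1 CPM in KO RAS (S6K1 series). Ifih1 values in the S6K1/S6K2 series were 17.6, 33.1 and 30.9 CPM in WT EV, 33.1, 9.65 and 10.6 CPM in WT RAS and 8.74, 5.597 and 7.96 CPM in DKO RAS. All DKO RAS values of Ifih1 lay below the WT RAS values, DKO RAS replicate 1 being close to WT RAS replicate 2, with a log2 fold change of -1.27 ± 0.47 (edgeR adjusted p = 0.9999). Ifih1 had a KO against WT value of -1.44 ± 0.62, with an edgeR adjusted p of 0.692, or 0.0106 with the replicate block. Zbp1 was at 9.25, 8.47 and 3.96 CPM in WT EV, 26.8, 32.4 and 3.71 CPM in WT RAS and 3.12, 6.52 and 1.52 CPM in KO RAS (S6K1 series). Zbp1 values in the S6K1/S6K2 series were 1.36, 2.34 and 4.73 CPM in WT EV, 12.3, 1.77 and 1.19 CPM in WT RAS and 1.67, 0.4997 and 1.503 CPM in DKO RAS. Zbp1 was high in WT RAS replicates 1 and 2 of the first series, and the KO against WT value was -2.44 ± 0.75, with an edgeR adjusted p of 0.587, or 0.00303 with the replicate block. With RAS in the second series Zbp1 had 0.86 ± 0.83, which became -0.94 without WT RAS replicate 1. Dhx58 was between 0.491 CPM in DKO RAS replicate 1 and 26.8 CPM in S6K1 WT RAS replicate 2.

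IRF7 amplifies the interferon response, and STAT2 and IRF9 are subunits of ISGF3. With RAS their median was 0.14 in the S6K1 series and -1.07 in the S6K1/S6K2 series, and with loss of S6K1 or of both kinases it was -1.18 and -0.70. Irf7 was at 23.8, 30.5 and 13.9 CPM in WT EV, 79.3, 102 and 13.5 CPM in WT RAS and 10.01, 26.5 and 5.91 CPM in KO RAS (S6K1 series). Irf7 values in the S6K1/S6K2 series were 10.9, 24.03 and 23.5 CPM in WT EV, 25.4, 4.12 and 5.29 CPM in WT RAS and 2.65, 2.798 and 4.77 CPM in DKO RAS. Its WT RAS replicates 1 and 2 in the first series stood above the WT EV range and replicate 3 just below it. With RAS the log2 fold change was 1.49 ± 0.71 (edgeR adjusted p = 0.221, or 0.0111 with the replicate block). Irf7 had a KO against WT value of -2.15 ± 0.73, with an edgeR adjusted p of 0.587, or 0.00526 with the replicate block. Irf9 was at 56.6, 76.3 and 63.4 CPM in WT EV, 81.1, 92.9 and 45.1 CPM in WT RAS and 37.2, 57.8 and 30.1 CPM in KO RAS (S6K1 series). Irf9 values in the S6K1/S6K2 series were 59.2, 93.5 and 79.99 CPM in WT EV, 53.7, 31.1 and 25.8 CPM in WT RAS and 22.4, 23.7 and 29.97 CPM in DKO RAS. In the second series all WT RAS values were below all WT EV values and Irf9 fell by 1.07 on the log2 scale (SE 0.27, edgeR adjusted p = 0.0181), and in the first they overlapped. Irf9 had a KO against WT value of -0.78 ± 0.30, with an edgeR adjusted p of 0.604, or 0.0288 with the replicate block. Stat2 was at 107, 184 and 125 CPM in WT EV, 158, 211 and 79.2 CPM in WT RAS and 35.7, 109.7 and 47.1 CPM in KO RAS (S6K1 series). Stat2 values in the S6K1/S6K2 series were 74.9, 147 and 162 CPM in WT EV, 90.7, 48.1 and 40.9 CPM in WT RAS and 25.3, 36.6 and 49.2 CPM in DKO RAS. WT RAS replicate 1 of the second series lay within the WT EV range, its RAS value was -1.10 ± 0.37 (edgeR adjusted p = 0.05503), and its KO against WT value was -1.18 ± 0.46, with an edgeR adjusted p of 0.608, or 0.0179 with the replicate block.

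PARP9 and DTX3L act as a pair that ADP-ribosylates and ubiquitinates, PARP12 and PARP14 are further ADP-ribosyltransferases, and PML and SP100 are scaffolds of nuclear bodies. The 6 genes had medians of 0.54 and -1.31 for RAS and KO in the S6K1 series and of -0.79 and -0.95 for RAS and DKO in the S6K1/S6K2 series. Pml was at 84.3, 115 and 90.2 CPM in WT EV, 136, 167 and 123 CPM in WT RAS and 103, 147 and 109 CPM in KO RAS (S6K1 series). Pml values in the S6K1/S6K2 series were 33.7, 68.3 and 84.3 CPM in WT EV, 112, 109 and 112 CPM in WT RAS and 114, 106 and 99.9 CPM in DKO RAS. All WT RAS values lay above all WT EV values in both series, and Pml rose by 0.84 on the log2 scale in the second (edgeR adjusted p = 0.0398). In the first the value was 0.54 ± 0.18 (edgeR adjusted p = 0.0916, or 0.000479 with the replicate block). Pml was also the gene nearest to 0 with loss of the kinases, at -0.22 ± 0.18 for KO and -0.06 ± 0.26 for DKO (edgeR adjusted p = 0.997 and 0.9999). Parp12 was at 49.5, 63.6 and 36.3 CPM in WT EV, 97.4, 100.2 and 25.2 CPM in WT RAS and 24.97, 43.95 and 20.2 CPM in KO RAS (S6K1 series). Parp12 values in the S6K1/S6K2 series were 48, 54.7 and 44.7 CPM in WT EV, 37.2, 16.2 and 18.97 CPM in WT RAS and 16.4, 17.9 and 17.9 CPM in DKO RAS. In the second series its WT RAS values did not reach the WT EV range, and in the first WT RAS lay on both sides of it, with a KO against WT value of -1.28 ± 0.48, with an edgeR adjusted p of 0.601, or 0.0288 with the replicate block. Sp100 was at 8.75, 11.3 and 3.13 CPM in WT EV, 22.5, 23.3 and 2.42 CPM in WT RAS and 1.56, 2.45 and 0.759 CPM in KO RAS (S6K1 series). Sp100 values in the S6K1/S6K2 series were 3.82, 0.954 and 1.29 CPM in WT EV, 2.94, 0.353 and 0.638 CPM in WT RAS and 0.589, 0.1999 and 0.354 CPM in DKO RAS. It was high where the macrophage markers were high, including WT EV replicates 1 and 2 of the S6K1 series, and its KO against WT value was -3.28 ± 0.83, with an edgeR adjusted p of 0.587, or 0.000341 with the replicate block. Parp9, Parp14 and Dtx3l had KO against WT values of -1.25 ± 0.52, -1.63 ± 0.74 and -1.35 ± 0.50 (edgeR adjusted p = 0.6697, 0.755 and 0.594), with all 3 called lower with the replicate block.

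The last 7 genes are of mixed or partly known function. Their medians were 0.82 and -2.09 for RAS and KO in the S6K1 series and -0.74 and -0.57 for RAS and DKO in the S6K1/S6K2 series. Epsti1 was at 4.13, 3.25 and 0.552 CPM in WT EV, 9.58, 10.3 and 1.77 CPM in WT RAS and 1.01, 1.38 and 0.253 CPM in KO RAS (S6K1 series). Epsti1 values in the S6K1/S6K2 series were 2.54, 0.781 and 0.344 CPM in WT EV, 1.998, 0.471 and 0.638 CPM in WT RAS and 1.37, 0.4997 and 0.619 CPM in DKO RAS. It was the gene whose KO RAS values all lay below all WT RAS values, with -2.97 ± 0.85, with an edgeR adjusted p of 0.587, or 8.35e-05 with the replicate block. Xaf1 was at 21.8, 27.1 and 15.8 CPM in WT EV, 58.3, 58.8 and 9.99 CPM in WT RAS and 7.25, 17.9 and 3.63 CPM in KO RAS (S6K1 series). Xaf1 values in the S6K1/S6K2 series were 19.8, 27.9 and 22.4 CPM in WT EV, 17.3, 4.24 and 4.38 CPM in WT RAS and 3.53, 3.198 and 5.304 CPM in DKO RAS. In the second series WT RAS lay wholly below WT EV (-1.43 ± 0.49, edgeR adjusted p = 0.0572, or 0.0494 with the replicate block), and KO against WT in the first gave -2.09 ± 0.69, with an edgeR adjusted p of 0.587, or 0.0111 with the replicate block. Lgals3bp was at 371, 443 and 311 CPM in WT EV, 462, 577 and 174 CPM in WT RAS and 132, 247 and 130.2 CPM in KO RAS (S6K1 series). Lgals3bp values in the S6K1/S6K2 series were 227, 320.4 and 339 CPM in WT EV, 216, 101 and 140.1 CPM in WT RAS and 68.1, 112 and 128 CPM in DKO RAS. In the S6K1 series WT RAS replicate 3 and all KO RAS libraries were below the WT EV range, with a KO against WT value of -1.22 ± 0.41, with an edgeR adjusted p of 0.587, or 0.0197 with the replicate block. Tor3a, an endoplasmic reticulum ATPase, was at 62.05, 61.1 and 57.1 CPM in WT EV, 127, 131 and 44.7 CPM in WT RAS and 39.5, 68.04 and 33.9 CPM in KO RAS (S6K1 series). Tor3a values in the S6K1/S6K2 series were 62.3, 72.2 and 62.2 CPM in WT EV, 65.3, 37.5 and 32.3 CPM in WT RAS and 31.3, 35.3 and 35.01 CPM in DKO RAS. Its KO against WT value was -1.06 ± 0.38, with an edgeR adjusted p of 0.587, or 0.0596 with the replicate block. Ifi44, Ifi35 and Ifi27l2a had values of -2.27 ± 0.90, -0.92 ± 0.36 and -2.85 ± 0.98 there (edgeR adjusted p = 0.632, 0.608 and 0.587, or 0.0158, 0.07105 and 0.000119 with the replicate block). Ifi27l2a has a close paralog, Ifi27l2b.

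The ligands were nearly undetected in the cultures. Ifnb1, which encodes interferon-β, had 3 and 4 counts in WT RAS replicates 1 and 2 of the S6K1 series, 1 count in KO RAS replicate 2 and 0 in the other 15 libraries. WT RAS replicates 1 and 2 and KO RAS replicate 2 also had the higher summed levels of interferon-stimulated genes in their groups. Among S6K1/S6K2 cells, however, Ifnb1 had 0 counts where the WT RAS sum was highest (replicate 1, 2239 CPM). Ifnb1 counts of 1, 3 and 4 are at or near the 3 counts that a 0 allows. A link between Ifnb1 and the level of these genes was not tested. Ifna2 had 3 counts and Ifne 14 counts over all 18 libraries, and Ifna4, Ifna12, Ifna13, Ifnk, Ifng, Ifnl2 and Ifnl3 had none, which allows up to 3 counts in a library. Ifna1, Ifna5, Ifna11, Ifnab and Ifnz were not analysed here.

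The receptor and its signalling genes were given by a list of 20 genes. Their median log2 fold change was -0.08 and -0.15 for RAS and KO in the S6K1 series and -0.12 and -0.02 for RAS and DKO in the S6K1/S6K2 series. The receptor chain gene Ifnar1 was at 94.6, 104 and 109 CPM in WT EV, 77.8, 95.3 and 102 CPM in WT RAS and 85.3, 106 and 95.9 CPM in KO RAS (S6K1 series). Ifnar1 values in the S6K1/S6K2 series were 92.4, 94.99 and 105 CPM in WT EV, 82.6, 97.2 and 95.3 CPM in WT RAS and 97.2, 88.4 and 77.4 CPM in DKO RAS. Ifnar2 was at 51.5, 46.6 and 47.1 CPM in WT EV, 46.9, 45.1 and 42.4 CPM in WT RAS and 38.6, 36.2 and 40.8 CPM in KO RAS (S6K1 series). Ifnar2 values in the S6K1/S6K2 series were 53.3, 52.6 and 45.1 CPM in WT EV, 43, 36.8 and 48.1 CPM in WT RAS and 38.98, 46.5 and 44.7 CPM in DKO RAS. The 4 comparisons gave Ifnar1 log2 fold changes of -0.18 ± 0.14, 0.09 ± 0.14, -0.09 ± 0.12 and -0.07 ± 0.12, none past the edgeR test, and Ifnar2 values between -0.24 and 0.02 with the same outcome. Irf1 was at 21.8, 24.3 and 23 CPM in WT EV, 25, 23.7 and 16.3 CPM in WT RAS and 11.1, 13.7 and 14.6 CPM in KO RAS (S6K1 series). Irf1 values in the S6K1/S6K2 series were 49.6, 37.5 and 34.1 CPM in WT EV, 17.98, 15.5 and 15.5 CPM in WT RAS and 11.8, 18.3 and 20.3 CPM in DKO RAS. It fell with RAS in the second series (-1.31 ± 0.22, edgeR adjusted p = 0.00295), and all its KO RAS values lay below all WT RAS values in the first (-0.69 ± 0.18, edgeR adjusted p = 0.587, or 0.0445 with the replicate block).

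Stat3, which acts downstream of interleukin-6 family cytokines, went from 307 ± 12.5 CPM (SD, n = 3) in WT EV to 189.9 ± 13.8 CPM in WT RAS of the S6K1 series (-0.71 ± 0.12, edgeR adjusted p = 0.00522). It also fell with RAS in the S6K1/S6K2 series (-0.42 ± 0.13, edgeR adjusted p = 0.0381). Socs1, a feedback inhibitor of the kinases, fell there from 14.2 ± 1.56 CPM to 4.01 ± 1.803 CPM (-1.83 ± 0.34, edgeR adjusted p = 0.004597), and Jak2 rose from 56.7 ± 6.67 CPM to 92.6 ± 12.5 CPM (0.70 ± 0.14, edgeR adjusted p = 0.00624). Of the 20 genes, edgeR called 1 lower for RAS in the S6K1 series, 1 higher and 4 lower for RAS in the S6K1/S6K2 series and none for KO or DKO. Over all genes it called 6.09% lower for RAS in the S6K1 series, and 13.5% higher and 12.7% lower in the other. With the replicate block edgeR called 6 of the 20 lower in KO against WT, beside 3.61% of all genes.

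Genes that lead to interferon induction, such as the DNA sensor pathway, the Toll-like receptors and their adaptors, were listed as 16 genes, with medians of 0.02 and -0.27 for RAS and KO in the S6K1 series and of 0.04 and -0.05 for RAS and DKO in the other. Nlrc5, the activator of MHC class I genes and a regulator of interferon signalling, was at 9.39, 17.7 and 8.28 CPM in WT EV, 77.6, 100.5 and 55.2 CPM in WT RAS and 34.98, 72.6 and 49.1 CPM in KO RAS (S6K1 series). Nlrc5 values in the S6K1/S6K2 series were 6.36, 5.99 and 6.96 CPM in WT EV, 48.99, 37.2 and 23.4 CPM in WT RAS and 27.3, 16.9 and 28.6 CPM in DKO RAS. It rose with RAS in both, by 2.698 and 2.50 on the log2 scale (edgeR adjusted p = 0.00184 and 0.000548), with every WT RAS value above every WT EV value, replicate 3 of the S6K1 series included. Ikbke and Rnf125 rose with RAS in the S6K1/S6K2 series (0.57 ± 0.17 and 1.79 ± 0.55, edgeR adjusted p = 0.0309 and 0.0377), and the adaptor gene Myd88 fell (-1.12 ± 0.17, edgeR adjusted p = 0.00184). No gene of this list was called for KO or DKO by edgeR without a block. With it 2 of 15 were called lower in KO, beside 3.61% of all genes.

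A further list of 26 interferon-stimulated genes that are not among the 43 was read in the same way. With RAS in the S6K1 series 22 of the 24 tested were fitted higher, beside 50.2% of all genes, and 2 lower. Their median was 0.56 and none was called by edgeR. In KO against WT 23 were lower, beside 43.4% of all genes, and 1 higher, with a median of -1.38. By edgeR none was called without a block and 13 lower with the replicate block, beside 3.61% of all genes. With RAS in the S6K1/S6K2 series 20 of the 22 tested were lower, beside 51.8% of all genes, and 2 higher, with a median of -0.70. There edgeR called Ifitm1 higher (2.05 ± 0.42, adjusted p = 0.00731) and Ifit1bl1, Trim21, Nmi and Trafd1 lower (-1.65, -1.34, -1.84 and -0.59, adjusted p = 0.0402, 0.0173, 0.0246 and 0.00398). Over all genes it called 13.5% higher and 12.7% lower. In DKO against WT 18 were lower, beside 50.1% of all genes, and 4 higher, with a median of -0.99, and edgeR called none.

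The level of each gene was compared with that of macrophage genes across the libraries, since these cultures held macrophage transcripts. Lyz2 encodes the lysozyme of myeloid cells, Csf1r the receptor for the macrophage growth factor CSF1, Adgre1 the macrophage antigen F4/80, Cd68 a lysosomal glycoprotein, Tyrobp a signalling adaptor and Ptprc the leukocyte antigen CD45. Lyz2 was at 1563, 1144 and 294 CPM in WT EV, 1936, 1869.8 and 396 CPM in WT RAS and 463, 419.5 and 142 CPM in KO RAS (S6K1 series). Lyz2 values in the S6K1/S6K2 series were 585, 78.1 and 92.8 CPM in WT EV, 536, 103 and 154 CPM in WT RAS and 122, 28.98 and 41.1 CPM in DKO RAS. Replicates 1 and 2 of the S6K1 series and replicate 1 of the S6K1/S6K2 series were high in WT EV and in WT RAS. Csf1r was at 164, 185 and 43.7 CPM in WT EV, 154, 153 and 33.3 CPM in WT RAS and 36.4, 26.3 and 9.03 CPM in KO RAS (S6K1 series). Csf1r values in the S6K1/S6K2 series were 75.4, 5.55 and 12.2 CPM in WT EV, 33.5, 3.77 and 5.65 CPM in WT RAS and 7.26, 1.299 and 2.03 CPM in DKO RAS. Adgre1 was at 108, 106 and 23.6 CPM in WT EV, 98.2, 81.9 and 20.95 CPM in WT RAS and 22.03, 15.6 and 6.58 CPM in KO RAS (S6K1 series). Adgre1 values in the S6K1/S6K2 series were 58.2, 3.47 and 5.84 CPM in WT EV, 21.9, 3.06 and 4.19 CPM in WT RAS and 5.99, 0.7996 and 1.24 CPM in DKO RAS. Both were high in the same WT EV and WT RAS libraries as Lyz2, and each KO RAS library was below the WT RAS library of the same number. Cd68 was at 204, 124 and 41.5 CPM in WT EV, 198, 144 and 49.6 CPM in WT RAS and 53.2, 32.2 and 21.2 CPM in KO RAS (S6K1 series). Cd68 values in the S6K1/S6K2 series were 137, 15.3 and 18.04 CPM in WT EV, 65.4, 33.4 and 25.99 CPM in WT RAS and 23.9, 28.4 and 29.3 CPM in DKO RAS. Tyrobp was at 76.4, 52.1 and 13.1 CPM in WT EV, 79.6, 57.1 and 11.4 CPM in WT RAS and 20.5, 10.6 and 3.71 CPM in KO RAS (S6K1 series). Tyrobp values in the S6K1/S6K2 series were 38.3, 3.64 and 3.52 CPM in WT EV, 17.03, 1.88 and 2.83 CPM in WT RAS and 5.11, 0.6996 and 1.33 CPM in DKO RAS. Cd68 differed from the others in that every DKO RAS library stood above WT EV replicates 2 and 3 of the S6K1/S6K2 series. WT RAS replicates 2 and 3 of that series also stood above them, as they did for Lyz2. Ptprc was at 54.3, 62.4 and 16.6 CPM in WT EV, 45.7, 49.8 and 11.2 CPM in WT RAS and 7.71, 8.82 and 2.53 CPM in KO RAS (S6K1 series). Ptprc values in the S6K1/S6K2 series were 20.9, 2.69 and 3.18 CPM in WT EV, 11.2, 1.65 and 2.55 CPM in WT RAS and 2.85, 0.3998 and 0.796 CPM in DKO RAS. All its KO RAS values lay below all WT RAS values.

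Over the 18 libraries the Pearson correlation of log2(CPM + 0.5) with Lyz2 was positive for all 43 genes, with a median of 0.72. The median over all 14613 genes was -0.027 and their 95th percentile 0.696, while the other macrophage markers had a median of 0.97. The highest value was 0.93 for Sp100, followed by Oas2 (0.86) and Epsti1 (0.86), and the lowest was 0.16 for Pml, next to Isg20 (0.38) and Ifitm3 (0.52). Spearman's rho had a median of 0.64, under the 95th percentile over all genes of 0.688. These libraries share lines, groups and the scaling, so the values are descriptions and carry no p. Without DKO RAS replicates 2 and 3, which were farthest from the median of Lyz2, the median was 0.65, against a 95th percentile over all genes of 0.68. For deviations from the group means it was 0.52, with 42 genes positive, against a 95th percentile of 0.776, so that by all 3 of these measures the median of the 43 lay below the 95th percentile, unlike the value first given.

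The likeness was also computed over the RAS and the EV libraries alone. Over the 12 RAS libraries all 43 genes were positively correlated with Lyz2, with a median of 0.89 and a range from 0.60 to 0.95, where all genes had a median of -0.031 and a 95th percentile of 0.831. Over the 6 EV libraries 21 of the 43 were positive, with a median of -0.03 and a range from -0.73 for Irf9 to 0.97 for Sp100, where all genes had a median of -0.061 and a 95th percentile of 0.879. Ifit1 had 0.93 over RAS and -0.61 over EV libraries, and Isg15 had 0.93 and 0.15. Epsti1, Oas3 and Ifi27l2a were, with Sp100, the genes most like Lyz2 over EV libraries, at 0.91, 0.81 and 0.74. The difference between these correlations was not tested. The ratio of the summed level of the interferon-stimulated genes to that of the macrophage markers came to 0.485, 0.816 and 2.01 for WT EV of the S6K1 series, 0.934, 1.197 and 1.48 for WT RAS and 1.06, 2.65 and 2.82 for KO RAS. The ratios of the S6K1/S6K2 series were 0.833, 11.5 and 7.803 for WT EV, 1.67, 4.21 and 2.88 for WT RAS and 2.26, 9.39 and 8.49 for DKO RAS. WT EV replicates 2 and 3 and DKO RAS replicates 2 and 3 of that series had high ratios at a low macrophage signal. In lines 1 and 2 of the S6K1 series the ratio was higher with RAS than with EV, and in line 3 it was lower. Lymphoid markers summed to at most 0.4 CPM in any library, and the neutrophil list to at most 0.2 CPM in EV libraries and between 6.0 and 19.2 CPM in RAS libraries. Of the 6 neutrophil markers only Ly6g and S100a8 carried this sum, the other 4 being at or under 3 counts in every RAS library.

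**Figure D4:**
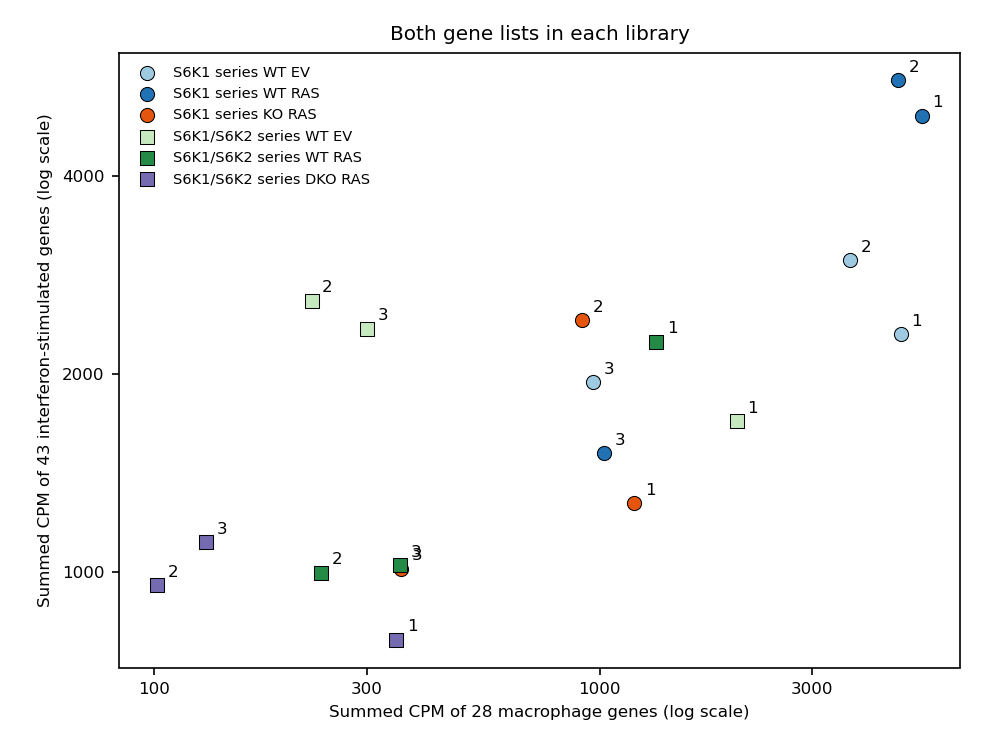
Summed CPM of the 43 interferon-stimulated genes (y axis) against summed CPM of the 28 macrophage markers (x axis), both on log axes, 1 point per library, with groups by colour and symbol. Among RAS libraries the points lie along a rising band from DKO RAS to S6K1 WT RAS replicates 1 and 2. Of the EV libraries, S6K1 WT EV replicate 3 lies within this band. WT EV replicates 2 and 3 of the S6K1/S6K2 series lie above it, at a low macrophage level.

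**Figure D5:**
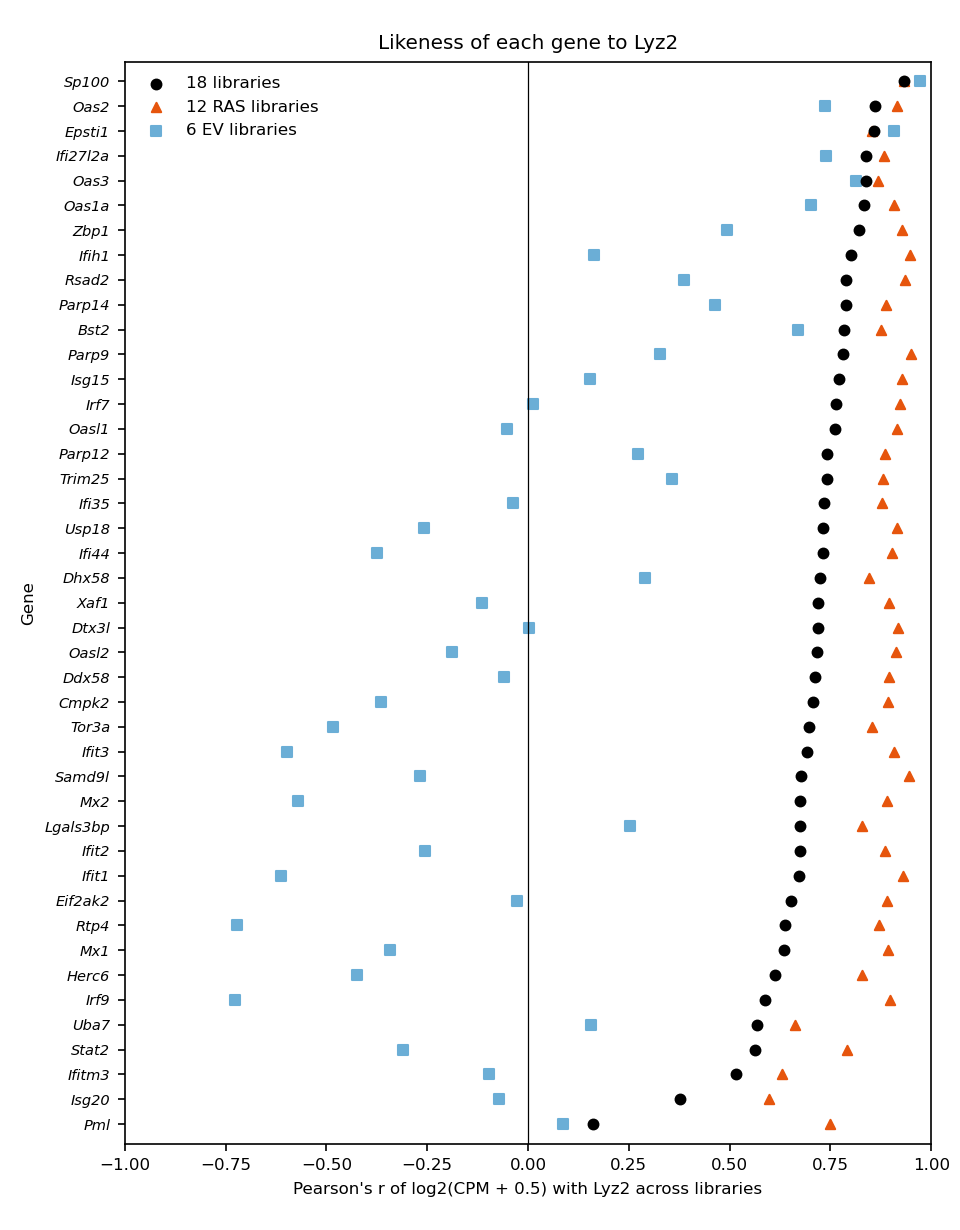
Pearson correlation of each interferon-stimulated gene with Lyz2 (x axis, log2(CPM + 0.5)) over all 18 libraries, the 12 RAS libraries and the 6 EV libraries, with genes on the y axis. All 43 are positive over the RAS libraries, and 21 of 43 are positive over the EV libraries.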

How the data were processed

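Poly(A) RNA from 18 MEF cultures was sequenced as single-end reads from stranded libraries. The authors deposited raw counts per gene, 1 column per library, and the number of columns not mapped to a sample was 0. The methods of the study name TopHat, the mm9 genome and HTSeq, whereas the submitters' processing notes name STAR 2.7.1a, mm10 and DESeq2 1.28.1, so the build behind the counts is not settled. Of the 55401 identifiers, 25336 had no counts, and 32589 had a symbol and held 99.1% of counts. The replicate with the lowest total had 8319445 counts and that with the highest 14402442, and precision at low counts is limited accordingly.

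The 43 genes, their role groups and the marker and pathway lists were chosen with earlier results of these data known. Groups were taken from the labels. Counts were tested in R 4.3.3 with edgeR 4.0.16 (two-sided quasi-likelihood test, TMM, filterByExpr with a minimum count of 10, Benjamini-Hochberg adjustment over all genes tested, threshold 0.05). Separate fits were made for both series, each of 9 libraries and with no term beside the group, as the methods of the study name no block. Differences between series were fitted over all 18 libraries. Fold changes are log2 with their standard errors. Levels are CPM scaled by TMM over all 18 libraries, and log2 ratios by line and correlations used CPM + 0.5. Overlap of groups was judged on CPM scaled within a series. The edgeR test was checked on simulated counts.

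Values in every library were given for 15 genes fixed by name, for up to 3 further genes per comparison with the smallest unadjusted p, for genes whose sign went against most others, and for 6 macrophage genes. Pathway genes were named where they passed the threshold, together with Irf1, Ifnar1, Ifnar2, Ifnb1 and the targeted genes, and 1 gene of that list is not reported here. Marker lists for endothelial, epithelial, muscle and neural cells were compiled and their results are given in the closing observations.

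EV and RAS libraries of the same number were taken as 1 WT line, and S6K1 KO and WT embryos were littermates. That KO and WT libraries of the same number share a mother was assumed for the block and is not given by the labels. Deviations from the group means correlated between libraries of the same number. In the S6K1 series the values were 0.707, 0.453 and 0.665 between EV and RAS and 0.712, 0.407 and 0.617 between WT and KO, and EV and RAS of the other series gave 0.381, 0.298 and 0.319. A replicate block was an alternative, as were DESeq2 1.42.0, its size factors, no filter, other sets of libraries in the fit and leaving out each library. No replicates agreed within sampling noise (chi-square over degrees of freedom of 7.98 for the closest pair). The labels do not tie libraries to embryos, so p-values measure the spread between these cultures.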

Additional observations from a re-analysis of the deposited data

Results flagged for a closer look

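The log2 ratios of Ifi27l2a with RAS had opposite signs in the lines of both series. The log2 ratio of RAS to EV was 1.01, 0.77 and 0.02 in lines 1 to 3 of the S6K1 series and -0.02, -2.16 and -0.39 in those of the S6K1/S6K2 series. In the fit over all 18 libraries the difference of the RAS responses (S6K1/S6K2 series minus S6K1 series) was -1.59 on the log2 scale, with an edgeR adjusted p of 0.635 (unadjusted p = 0.286), so that it did not pass the test. Its level was low, with 0, 0.400 and 0.177 CPM in DKO RAS and 9.93, 13.6 and 1.13 CPM in WT RAS of the S6K1 series. It was singled out because every line of one series had the opposite sign to every line of the other.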

How the results depend on the processing

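With the replicate block 20 of the 43 genes were called for RAS against EV in S6K1 cells and 38 for S6K1 KO against WT, where the fit without it called 0, and 5 were called for RAS in S6K1/S6K2 cells and 0 for DKO against WT. In that last comparison same-numbered libraries correlated at 0.273, 0.453 and -0.037, so the numbers were not taken as pairs. For RAS against EV in the S6K1 series DESeq2 called 2 genes, the fit with no filter 5 and the fit over all 18 libraries 1, and leaving out each library gave 0 to 12 genes and medians of 0.65 to 1.41. For KO against WT DESeq2 called 1 gene and the fit with no filter 3, and leaving out each library gave 0 to 1 gene and medians of -2.72 to -1.50. For RAS in S6K1/S6K2 cells, called for 5 genes in the fit as designed, DESeq2 called 8, no filter 14, the 6 compared libraries alone 1 and all 18 libraries 3, and leaving out each library gave 0 to 30 genes and medians of -1.65 to -0.37. For DKO against WT no filter gave 2 genes, and leaving out each library gave 0 genes and medians of -1.47 to -0.21. For the difference of the RAS responses no filter gave 3 genes. For most of these settings the share of all genes called is not given here. The counts therefore show only how the calls moved with the setting. The cause of these changes was not tested.

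Among the 15 genes followed under all alternatives, 10 values changed sign, each when 1 library was left out. For RAS against EV in the S6K1 series these were Stat2 (-0.085) and Eif2ak2 (-0.023) without WT EV replicate 1, and Irf9 (-0.055), Stat2 (-0.23) and Eif2ak2 (-0.069) without WT RAS replicate 2. In the S6K1/S6K2 series they were Eif2ak2 (0.064) without WT EV replicate 3, Rsad2 (-1.56) and Zbp1 (-0.94) without WT RAS replicate 1, and for DKO against WT Ifitm3 (0.12) without WT RAS replicate 1 and (0.14) without DKO RAS replicate 1. Leaving out each library, these values ran from -0.055 to 0.38 (Irf9), -0.23 to 0.38 (Stat2) and -0.069 to 0.39 (Eif2ak2) in the S6K1 series, and from -0.41 to 0.064 (Eif2ak2), -1.56 to 1.54 (Rsad2), -0.94 to 1.46 (Zbp1) and -0.28 to 0.14 (Ifitm3) in the S6K1/S6K2 series. Of the other values of these genes, 657 kept their direction and side of the threshold, 49 gained the call and 3, all Irf9, lost it. With DESeq2 size factors no count of called genes differed from that with TMM by more than 1.5 times. Where leaving out a library left 2 in a group, the spread was pooled over the fit. At 3 libraries a group with this spread between lines, and at few counts for the OAS genes, smaller differences were not detectable.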

Other observations

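Markers of other cell types were summed in the same way. The 7 epithelial markers summed to 7.89 to 18.8 CPM in EV libraries and 86.7 to 239.5 CPM in RAS libraries, the 6 muscle markers to 7.29 to 88.1 and 71.2 to 235 CPM, the 6 neural markers to 86.7 to 151 and 179.9 to 502 CPM, and the 8 endothelial markers to 8.89 to 10.8 and 8.95 to 16.2 CPM. Epithelial and neural sums were higher in RAS than in EV libraries without overlap, and the fibroblast sum was lower without overlap (44568 to 60372 CPM in EV and 23833 to 37923 CPM in RAS libraries). The neural markers did not all rise. Their median log2(CPM + 0.5) was 2.80, 2.99 and 2.94 in S6K1 WT EV and 1.15, 1.17 and 1.66 in S6K1 WT RAS. In the S6K1/S6K2 series it was 1.91, 2.12 and 3.10 in WT EV and 1.92, 1.69 and 2.30 in WT RAS. In every library 3 or 4 of the 6 muscle markers were at or under 3 counts. S6K1 WT RAS replicate 3, low for the interferon-stimulated genes and for the macrophage markers, was within the range of the other RAS libraries for the epithelial sum. Whether these markers bear on the interferon-stimulated genes was not tested.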
